A study of Homo sapiens with 12 samples.

Results

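Histone genes were examined in polyadenylated RNA from EndoC-βH1 cells, a human pancreatic beta-cell line that grows continuously in culture. Members were genes whose current symbol, matched through the Entrez gene identifier, follows the H1-, H2AC, H2BC, H3C or H4C pattern, together with H2AX, H2AZ1, H2AZ2, H3-3A, H3-3B and H1-10. The pattern matched 98 symbols, of which 2 antisense noncoding genes, H1-10-AS1 and H2BC6-AS1, were set apart. The other 96 were 70 replication-dependent genes, 9 replication-independent variant genes and 17 pseudogenes, and 72 of the 96 were among the 21508 genes listed in at least 1 library. A gene that a library did not list was taken as 0.

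The study addressed the effects of silencing the long noncoding RNA TUNAR and of inhibiting the kinase GSK3 on the beta-cell transcriptome. The 12 libraries form 4 groups of 3, all from 1 cell line and all transfected with siRNA 2 days before a 24 h treatment. The groups were TUNAR siRNAs with the GSK3 inhibitor 1-AKP at 5 µM, negative siRNA with 1-AKP at the same dose, TUNAR siRNAs with DMSO vehicle, and negative siRNA with DMSO vehicle. Replicates 1 and 2 of each group were at passage 74 and replicate 3 at passage 75. Beyond this difference in passage, the labels do not say that replicates were grown apart. The p-values therefore measure the spread between these samples, which may be technical in part.

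Replication-dependent histone genes supply the bulk of new histones while DNA is copied. Their mRNAs normally end in a conserved stem-loop instead of a poly(A) tail, are bound there by SLBP, and are degraded when replication stops. Variant genes such as those for H2A.Z and H3.3 are transcribed outside S phase and make ordinary polyadenylated mRNAs, so oligo(dT) selection captures them, and it captures replication-dependent transcripts only where they carry a tail. Total histone RNA was not measured here.

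The libraries held 15653786 to 15986834 expected counts. TUNAR stood at 2.14, 3.21 and 4.18 FPKM (fragments scaled by transcript length and library total) with TUNAR siRNAs in 1-AKP, against 8.63, 9.52 and 9.46 FPKM with negative siRNA in 1-AKP. In DMSO it stood at 1.20, 2.24 and 2.50 FPKM with TUNAR siRNAs, against 4.53, 6.22 and 5.51 FPKM with negative siRNA, so the siRNA groups did not overlap in either treatment. The beta-cell markers were present, with INS between 20684 and 28891 FPKM and PDX1 between 98.6 and 134 FPKM. The glucagon gene GCG did not exceed 0.35 FPKM, PPY, PRSS1 and CELA3A were at 0, and SST ranged from 5.89 to 52.9 FPKM. The duct marker KRT19 reached 45.8 FPKM, the macrophage marker CD68 28.7 FPKM and the acinar marker CPA1 22.0 FPKM.

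The stem-loops of the detected genes show which transcripts carry the replication-dependent signal and how far the annotated RNA runs past it. In GENCODE v29, a stem-loop was searched for as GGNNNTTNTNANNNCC with arms of 6 fully complementary bases and a loop of 4. It was found in 30 of 70 replication-dependent genes (42.9%), in 1 of 9 variant genes (11.1%) and in 60 of 19702 protein-coding genes (0.305%). All 30 were among the 37 replication-dependent genes with an annotated transcript longer than its coding sequence (81.1% of these), and none was found in the other 33, whose annotated transcripts stop with the coding sequence. Those 33 include the abundant genes H2BC12 and H1-2, so the search could not reach a stem-loop in either. Capitals mark the stem-loop in the RNA-sense DNA letters, 5′ to 3′.
H2BC21: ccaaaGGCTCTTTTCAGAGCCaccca
H2AC6: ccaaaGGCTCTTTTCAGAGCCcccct
H2AC25: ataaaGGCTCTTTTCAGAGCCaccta
H2AC18: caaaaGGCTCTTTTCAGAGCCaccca
H2BC5: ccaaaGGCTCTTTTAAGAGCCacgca
H4C14: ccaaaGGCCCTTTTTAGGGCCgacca
H2AX: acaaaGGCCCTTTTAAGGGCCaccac
The H2A and H2B genes H2BC21, H2AC6, H2AC25 and H2AC18 shared the same 16 letters. In H2BC21 the annotated transcript that holds it ran 1729 bases past the stem-loop and held 1 AATAAA polyadenylation signal there, and in H2AC6 it ran 1114 bases past it with 2. The variant gene H2AX, which makes the H2A.X protein phosphorylated at DNA breaks, carried both a stem-loop and 1044 further bases. The further bases of H2AX held 0 AATAAA. In H2AC18 only 35 bases followed the stem-loop and in H2BC5 39, with 1 AATAAA in each. In H2AC25 390 bases followed it and in H4C14 194, with 0 in each. In H4C15, whose expression values are identical to those of H4C14, 690 bases followed it with 1 AATAAA. H2BC5 also has an annotated transcript of 789 bases with no stem-loop and 1 AATAAA. A match is a description of the letters and not a measured processing site. The deposited gene lengths averaged 2223 bases for H2BC21, 546 for H2AC6, 496 for H2AC25 and 396 for H4C14. The GENCODE transcripts that hold these stem-loops have 2194, 1654, 895 and 583 bases. For H2AC6, H2AC25 and H4C14 the FPKM values therefore refer to shorter transcripts than those described here.

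Variant transcripts dominated the histone RNA captured by oligo(dT) selection. Their summed level was 1377.3, 1202.3 and 1315.4 FPKM with TUNAR siRNAs in 1-AKP, 1365.4, 1196.6 and 1260.7 FPKM with negative siRNA in 1-AKP, 1489.0, 1294.7 and 1385.1 FPKM with TUNAR siRNAs in DMSO, and 1438.6, 1321.4 and 1351.3 FPKM with negative siRNA in DMSO. Replication-dependent genes summed to 141.3, 144.7 and 133.8 FPKM in 1-AKP, against 186.8, 165.2 and 155.7 FPKM in DMSO, with TUNAR siRNAs, and these did not overlap. With negative siRNA they summed to 147.7, 130.7 and 115.7 FPKM in 1-AKP, against 167.1, 160.9 and 145.5 FPKM in DMSO, and these overlapped. They made up 8.41% to 11.3% of the FPKM of replication-dependent and variant genes together. Both sums overlapped between the siRNA groups within each treatment.

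Among the variants, H2AZ1 and H3-3A, which encode H2A.Z and H3.3, led with means over the 12 libraries of 389.9 and 389.4 FPKM, and these neighbours in the order overlapped. H1-10, a linker histone, averaged 163 FPKM and H2AZ2, the second H2A.Z gene, 160.0 FPKM. H3-3B, the second H3.3 gene, averaged 121 FPKM and H2AX 68.7 FPKM. H1-10 and H2AZ2 overlapped, while H2AZ2, H3-3B and H2AX were separated from one another in all libraries.

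The variants were then read library by library. H2AZ1 had 452.87, 357.92 and 392.41 FPKM in 1-AKP, against 409.77, 352.73 and 388.77 FPKM in DMSO, with TUNAR siRNAs, and 435.57, 371.20 and 384.77 FPKM in 1-AKP, against 392.82, 363.83 and 376.26 FPKM in DMSO, with negative siRNA. H2AZ2 had 182.61, 137.88 and 149.05 FPKM in 1-AKP, against 190.06, 156.25 and 159.78 FPKM in DMSO, with TUNAR siRNAs, and 168.42, 143.46 and 143.03 FPKM in 1-AKP, against 180.33, 152.79 and 156.53 FPKM in DMSO, with negative siRNA. In both H2A.Z genes the treatments overlapped within each siRNA. H3-3A had 360.93, 355.18 and 400.31 FPKM in 1-AKP, against 437.30, 393.99 and 420.12 FPKM in DMSO, with TUNAR siRNAs, and 352.11, 344.96 and 377.17 FPKM in 1-AKP, against 410.23, 418.77 and 401.30 FPKM in DMSO, with negative siRNA. With negative siRNA all 1-AKP values of H3-3A were below those in DMSO, while with TUNAR siRNAs they overlapped. H3-3B had 129.05, 111.99 and 122.68 FPKM in 1-AKP, against 135.44, 117.37 and 126.15 FPKM in DMSO, with TUNAR siRNAs, and 128.07, 106.34 and 114.32 FPKM in 1-AKP, against 129.58, 110.65 and 117.00 FPKM in DMSO, with negative siRNA. H2AX had 76.83, 61.46 and 67.32 FPKM in 1-AKP, against 81.50, 64.05 and 68.48 FPKM in DMSO, with TUNAR siRNAs, and 75.39, 61.79 and 62.46 FPKM in 1-AKP, against 77.22, 62.92 and 65.32 FPKM in DMSO, with negative siRNA. H3-3B and H2AX overlapped between treatments within each siRNA, and the highest value in each of their groups was that of replicate 1.

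One replication-dependent gene stood apart from its class. H2BC12 averaged 54.3 FPKM, 4.86 times the next replication-dependent gene, H2AC25, at 11.2 FPKM, and held 28.6% to 42.0% of summed replication-dependent FPKM. H1-2 followed at 9.33 FPKM, H4C14 and H4C15 at 8.91 FPKM each, H2BC5 at 7.40 FPKM, H2AC18 and H2AC19 at 6.67 FPKM each, H2BC21 at 6.49 FPKM and H2AC6 at 4.19 FPKM. Of the 63 replication-dependent genes listed in any library, 47 averaged under 1 FPKM and 26 were listed in all 12. Near-identical paralogs share reads that the authors' estimation divides between them, and the pairs H2AC18 and H2AC19, H4C14 and H4C15, and H3C14 and H3C15 had identical values in every library, so each pair is 1 measurement.

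**Figure D1:**
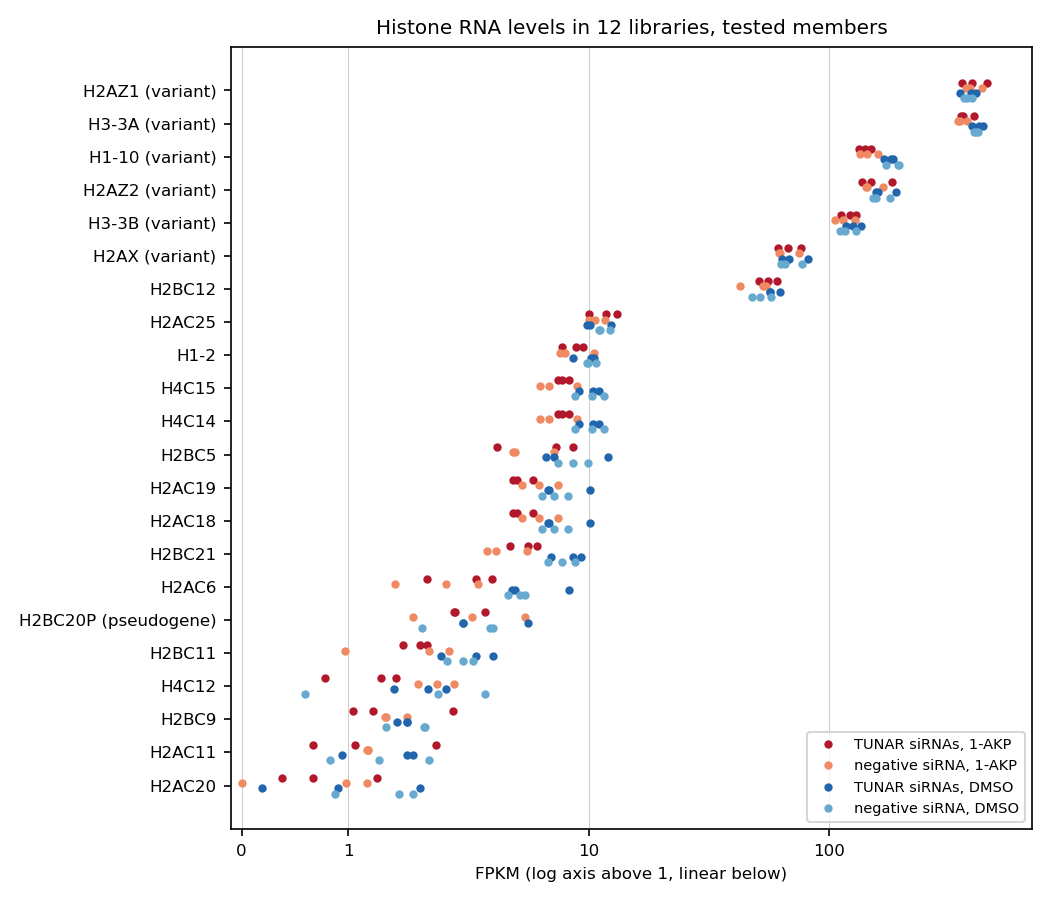
FPKM of 22 tested histone genes (rows) in each of 12 libraries (points, coloured by siRNA and treatment), on an axis that is logarithmic above 1 and linear below. Unmarked rows are replication-dependent genes; H2BC12, at a mean of 54.3 FPKM, is the one that lies nearest the variants.

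The promoters of H2BC21, H2BC12 and H1-10 are shown because the first and the last belong to the genes that fell under 1-AKP and H2BC12 to the most abundant replication-dependent gene, which was not called. The sequences are from RefSeq (GRCh38.p14, minus strand, 250 bases before to 50 after the annotated start), and the expression files use GRCh37. Capitals mark matches on either strand to the CCAAT box (letters CCAAT), to the TATA box (letters TATAAA) and to the octamer (letters ATTTGCAT). A TATA box match can overlap its own reverse complement, as at the start of the H2BC12 window.
H2BC21, chr1:149886633-149886932: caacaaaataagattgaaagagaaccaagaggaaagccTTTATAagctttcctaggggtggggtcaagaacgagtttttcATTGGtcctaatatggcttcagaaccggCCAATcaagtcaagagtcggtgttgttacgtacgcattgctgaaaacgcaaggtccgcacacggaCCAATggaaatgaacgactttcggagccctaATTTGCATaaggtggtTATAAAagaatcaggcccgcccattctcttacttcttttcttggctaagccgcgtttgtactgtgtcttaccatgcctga
H2BC12, chr6:27146806-27147105: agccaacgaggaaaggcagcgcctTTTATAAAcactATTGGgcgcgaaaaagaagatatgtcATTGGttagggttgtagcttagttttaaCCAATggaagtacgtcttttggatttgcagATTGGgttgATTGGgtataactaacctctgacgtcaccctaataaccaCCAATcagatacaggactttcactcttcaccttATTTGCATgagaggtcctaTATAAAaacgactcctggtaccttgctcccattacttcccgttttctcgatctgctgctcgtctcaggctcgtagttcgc
H1-10, chr3:129316237-129316536: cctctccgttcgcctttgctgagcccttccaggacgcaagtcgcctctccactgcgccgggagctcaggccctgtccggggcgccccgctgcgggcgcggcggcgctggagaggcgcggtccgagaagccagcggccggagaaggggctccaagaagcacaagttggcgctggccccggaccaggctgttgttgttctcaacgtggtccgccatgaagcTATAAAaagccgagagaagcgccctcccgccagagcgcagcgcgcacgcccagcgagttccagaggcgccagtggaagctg
The H2BC21 window held 3 CCAAT, 2 TATAAA and 1 octamer matches, the H2BC12 window 6, 3 and 1, and the H1-10 window 0, 1 and 0. Of 64 replication-dependent genes matched in the table, 84.4% held CCAAT, 65.6% TATAAA and 40.6% the octamer, beside 34.6%, 11.5% and 1.77% of all 35116 promoters. Of 8 variant genes, 87.5% held CCAAT, 50.0% TATAAA and 12.5% the octamer, so CCAAT was as frequent there and H1-10 was an exception. Members were counted at 1 promoter per gene, and all promoters at every entry. The octamer, known as the site of OCT1 in H2B promoters, was in 77.8% of 18 H2B promoters, 68.8% of 16 H2A promoters and 9.09% of 11 H3 promoters, and in 0 of 13 H4 and 0 of 6 H1 promoters.

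With 23 members passing the filter on low counts (15 replication-dependent genes, 7 variants and the pseudogene H2BC20P), 1-AKP was followed by lower H1-10 and H2BC21 RNA in both siRNA backgrounds. The other 73 members were not tested, 49 of them listed at low values and 24 listed nowhere. In bulk RNA, fewer cells making a transcript and less of it per cell cannot be told apart.

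H1-10 stood at 133.99, 140.99 and 149.32 FPKM in 1-AKP, against 185.18, 169.37 and 180.66 FPKM in DMSO, with TUNAR siRNAs. With negative siRNA it stood at 159.30, 135.08 and 144.61 FPKM in 1-AKP, against 196.01, 172.38 and 193.18 FPKM in DMSO. Every 1-AKP library was below every DMSO library of the same siRNA. The log2 fold change was -0.32 ± 0.07 (SE, edgeR quasi-likelihood adjusted p = 0.0134) with TUNAR siRNAs and -0.33 ± 0.07 (adjusted p = 0.011) with negative siRNA. The noncoding gene H1-10-AS1 overlaps H1-10, and without strand information reads from a shared stretch cannot be told apart. The expected counts of H1-10 were whole numbers in every library, which shows no division of its reads with another gene. H1-10 averaged 3915.58 expected counts and H1-10-AS1 94.04. The log2 fold changes of H1-10-AS1 were -0.49 (edgeR adjusted p = 0.0133) with TUNAR siRNAs and -0.52 (adjusted p = 0.00985) with negative siRNA, at group means of 2.18 to 3.24 FPKM.

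H2BC21, an H2B gene on chromosome 1, stood at 6.07, 5.58 and 4.69 FPKM in 1-AKP, against 9.26, 8.57 and 6.96 FPKM in DMSO, with TUNAR siRNAs. With negative siRNA it stood at 5.53, 4.12 and 3.77 FPKM in 1-AKP, against 8.78, 7.74 and 6.76 FPKM in DMSO. The groups did not overlap in either background. Its log2 fold change was -0.58 ± 0.16 (SE, edgeR adjusted p = 0.04) with TUNAR siRNAs and -0.77 ± 0.16 (adjusted p = 0.0127) with negative siRNA. It is the gene whose annotated transcript runs 1729 bases past the stem-loop shown above.

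In the fit of 4 group means these 2 were the only calls among the 23 members in each background, both downward, where 3.79% of all 15990 tested genes fell with TUNAR siRNAs (7.51% in either direction) and 3.76% with negative siRNA (7.3% in either direction). The members' median log2 fold change was -0.28 with TUNAR siRNAs and -0.20 with negative siRNA, beside -0.00074 and -0.00347 over all tested genes, and 20 of 23 values were negative in each. The matching share of negative values over all genes was not counted. The 23 count H2AC18 and H2AC19, and H4C14 and H4C15, as separate genes, although each pair is 1 measurement and was lower in both backgrounds. The 2 comparisons share no library. Without the 4 replicate 1 libraries, an alternative chosen after seeing the data, 4 members fell with TUNAR siRNAs and 6 with negative siRNA, where 8.26% and 7.71% of all genes fell, and the 4 were all among the 6, with H1-10, H2AZ2 and H2BC21 in both. With passage 74 alone, 2 libraries a group, edgeR called no member in either, where 0.418% and 0.318% of all genes were called. The H1-10 call ended without replicate 3 of TUNAR siRNAs in DMSO (edgeR adjusted p = 0.05, with TUNAR siRNAs) and without replicate 2 of negative siRNA in 1-AKP (adjusted p = 0.0563, with negative siRNA). With TUNAR siRNAs the H2BC21 call ended without replicate 2 or 3 in 1-AKP (edgeR adjusted p = 0.0981 and 0.162), replicate 1 or 2 in DMSO (0.126 and 0.133), or replicate 2 of negative siRNA in 1-AKP or DMSO (0.0576 and 0.0617). With negative siRNA it ended without replicate 2 or 3 in 1-AKP (edgeR adjusted p = 0.0624 and 0.0654) or replicate 1 in DMSO (0.0524).

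**Figure D2:**
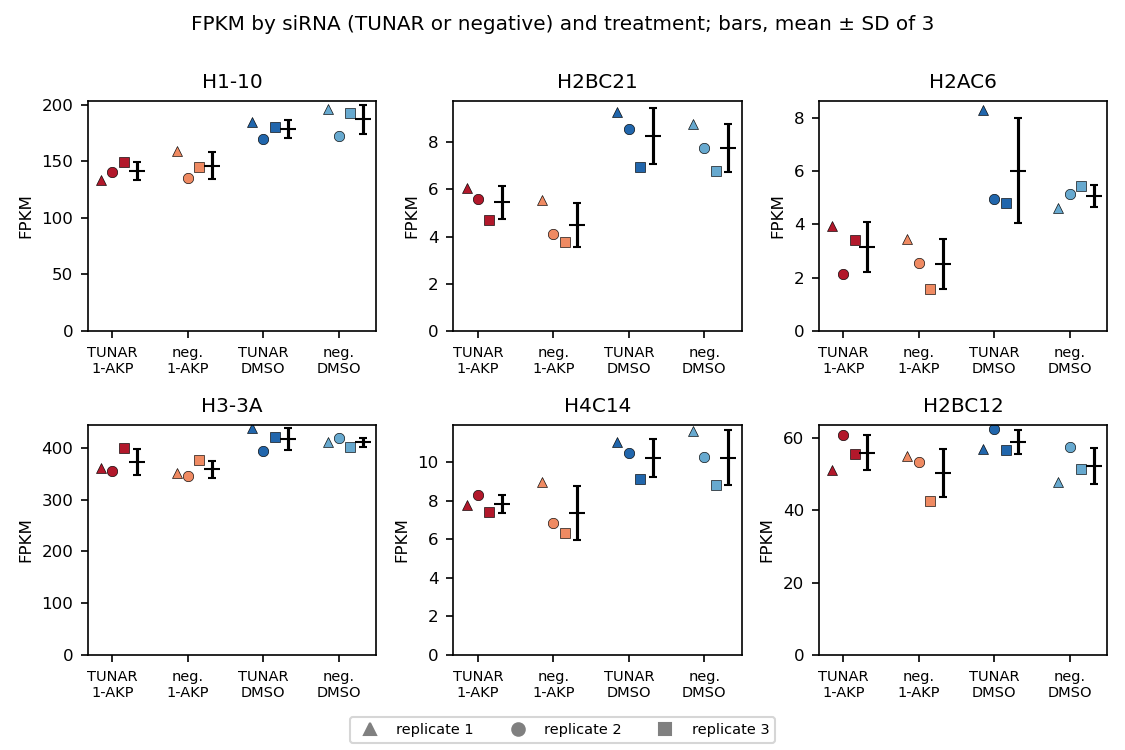
FPKM of 6 members in each library by siRNA (TUNAR or negative) and treatment, with replicates as symbols and the mean ± SD of 3 as bars; each vertical axis starts at 0. H1-10 and H2BC21 lie lower in all 1-AKP libraries than in the DMSO libraries of the same siRNA, while H2BC12 overlaps.

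Other members lay lower in 1-AKP without passing the test in that fit. H2AC6 stood at 3.95, 2.13 and 3.41 FPKM in 1-AKP, against 8.30, 4.94 and 4.81 FPKM in DMSO, with TUNAR siRNAs, and at 3.45, 2.54 and 1.56 FPKM in 1-AKP, against 4.62, 5.16 and 5.45 FPKM in DMSO, with negative siRNA. The groups did not overlap, and the log2 fold changes were -0.91 ± 0.29 (SE, edgeR adjusted p = 0.0832) with TUNAR siRNAs and -1.0 ± 0.31 (adjusted p = 0.0729) with negative siRNA. H4C14, identical to H4C15, gave -0.38 (edgeR adjusted p = 0.227) with TUNAR siRNAs and -0.46 (adjusted p = 0.142) with negative siRNA. H3-3A gave -0.15 (edgeR adjusted p = 0.133) with TUNAR siRNAs and -0.17 (adjusted p = 0.0802) with negative siRNA. The abundant H2BC12 stood at 51.15, 60.80 and 55.66 FPKM in 1-AKP, against 57.06, 62.58 and 56.71 FPKM in DMSO, with TUNAR siRNAs. With negative siRNA H2BC12 stood at 54.87, 53.25 and 42.69 FPKM in 1-AKP, against 47.81, 57.56 and 51.55 FPKM in DMSO. Its groups overlapped, with log2 fold changes of -0.06 ± 0.10 (SE) with TUNAR siRNAs and -0.04 ± 0.10 with negative siRNA. H2AZ1 gave 0.08 ± 0.08 with TUNAR siRNAs and 0.10 ± 0.08 with negative siRNA. In CPM, 8 members lay wholly below DMSO with TUNAR siRNAs and 4 with negative siRNA, and none wholly above; the 8 hold 2 pairs of identical values and so are 6 measurements. Of all tested genes, 12% with TUNAR siRNAs and 12.5% with negative siRNA lay wholly below and 12.1% and 13.4% wholly above.

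Of the more abundant replication-dependent genes, the linker histone gene H1-2 and the H2A gene H2AC25 overlapped between treatments. H2AC25 had 10.07, 13.12 and 11.76 FPKM in 1-AKP, against 12.41, 9.81 and 10.13 FPKM in DMSO, with TUNAR siRNAs, and 11.66, 10.66 and 10.05 FPKM in 1-AKP, against 12.27, 11.04 and 11.15 FPKM in DMSO, with negative siRNA. H1-2 had 7.78, 8.87 and 9.46 FPKM in 1-AKP, against 8.62, 10.20 and 10.48 FPKM in DMSO, with TUNAR siRNAs, and 10.52, 7.61 and 7.95 FPKM in 1-AKP, against 10.76, 9.84 and 9.90 FPKM in DMSO, with negative siRNA. The H4 gene H4C14, the H2A gene H2AC18 and the H2B gene H2BC5 had lower means in 1-AKP in both backgrounds. H4C14 had 7.78, 8.32 and 7.42 FPKM in 1-AKP, against 11.02, 10.46 and 9.10 FPKM in DMSO, with TUNAR siRNAs, and 8.97, 6.85 and 6.30 FPKM in 1-AKP, against 11.61, 10.29 and 8.80 FPKM in DMSO, with negative siRNA. H2AC18 had 4.84, 5.05 and 5.84 FPKM in 1-AKP, against 10.11, 6.76 and 6.81 FPKM in DMSO, with TUNAR siRNAs, and 7.42, 6.20 and 5.28 FPKM in 1-AKP, against 8.21, 7.15 and 6.39 FPKM in DMSO, with negative siRNA. H2BC5 had 8.63, 7.31 and 4.17 FPKM in 1-AKP, against 12.04, 6.62 and 7.18 FPKM in DMSO, with TUNAR siRNAs, and 7.16, 4.85 and 4.94 FPKM in 1-AKP, against 9.89, 8.58 and 7.42 FPKM in DMSO, with negative siRNA. In FPKM, H4C14 and H2AC18 did not overlap with TUNAR siRNAs, nor H2BC5 with negative siRNA, and all 3 genes missed the threshold in the same fit. H2AC11, another H2A gene, had 2.32, 1.07 and 0.67 FPKM in 1-AKP, against 1.76, 0.94 and 1.85 FPKM in DMSO, with TUNAR siRNAs, and 1.21, 1.20 and 1.21 FPKM in 1-AKP, against 2.16, 0.83 and 1.34 FPKM in DMSO, with negative siRNA. The pseudogene H2BC20P had 3.71, 2.78 and 2.74 FPKM in 1-AKP, against 5.60, 3.01 and 3.00 FPKM in DMSO, with TUNAR siRNAs, and 5.43, 1.86 and 3.26 FPKM in 1-AKP, against 3.90, 2.03 and 4.01 FPKM in DMSO, with negative siRNA. Both overlapped in every comparison of treatments.

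TUNAR siRNAs gave no call among the histone genes. In 1-AKP and in DMSO, edgeR's quasi-likelihood test called 0 of 23 members, where 0.0% and 0.0125% of all tested genes were called. It also gave 0 members at an unadjusted p under 0.05 in each. The share of all genes at that unadjusted threshold is not given here. The replicate numbers pair these libraries. With the replicate block the count was again 0 of 23 in each, where 2.77% and 3.05% of all genes were called. The block gave 3 members at an unadjusted p under 0.05 in each, again without the share of all genes at that threshold. DESeq2 also called 0 members, where 0.252% (1-AKP) and 0.103% (DMSO) of all genes with an adjusted p were called. Limma called 0 members as well, where 0.0% and 0.00625% of all genes were called. The nearest under the block were H2BC21 in 1-AKP at 0.29 ± 0.09 (SE, edgeR adjusted p = 0.084) and H3-3B in DMSO at 0.09 ± 0.03 (adjusted p = 0.0604). In DMSO H4C12, an H4 gene, had 2.55, 1.55 and 2.14 FPKM with TUNAR siRNAs, against 2.36, 3.69 and 0.59 FPKM with negative siRNA. It stood at 1.58, 0.78 and 1.37 FPKM with TUNAR siRNAs in 1-AKP, against 1.95, 2.33 and 2.74 FPKM with negative siRNA in 1-AKP, and was the 1 member whose CPM did not overlap there (4.47% of all genes lay wholly below), with a log2 fold change of -0.90 ± 0.52 (SE, edgeR adjusted p = 1.0). The siRNA by treatment interaction gave 0 of 23 calls, where 0.0% of all genes were called. At an unadjusted p under 0.05 it gave 0 members, where 170 of 15990 genes passed. DESeq2 and limma also gave 0 members, where each called 0.0% of all genes.

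The combined change, TUNAR siRNAs in 1-AKP against negative siRNA in DMSO, called H1-10 alone of 23 members, where 7.57% of all genes were called (3.95% downward). H1-10 gave -0.38 ± 0.07 (SE, edgeR adjusted p = 0.00543), and H2BC21 gave -0.48 ± 0.16 (adjusted p = 0.0842). This comparison shares its libraries with those above. Without the replicate 1 libraries 5 members fell, where 7.94% of all genes fell.

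**Figure D3:**
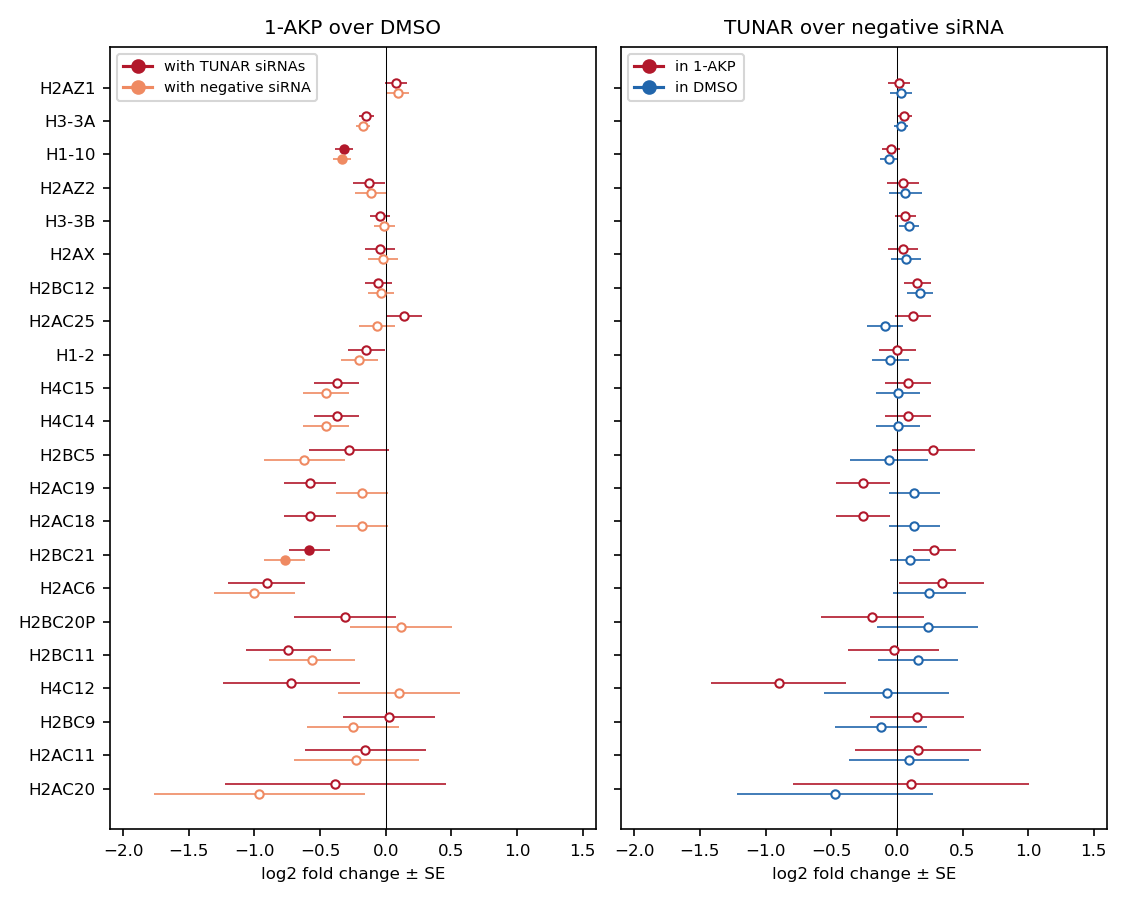
Log2 fold change ± SE of 22 tested members for 1-AKP over DMSO (left) and TUNAR over negative siRNA (right), from edgeR; filled points have an adjusted p under 0.05. H1-10 and H2BC21 are the filled points on the left, and no point on the right is filled.

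Genes that process, load and exchange histones were read under 1-AKP beside the 7.51% of all genes called with TUNAR siRNAs and the 7.3% with negative siRNA. The 1-AKP calls in this paragraph come from the fit of 4 group means. With the replicate block more genes of every list were called, with counts in the closing section. Of 22 genes for histone mRNA 3′ processing and decay, XRN1, a 5′ to 3′ exonuclease, fell with TUNAR siRNAs (log2 -0.33, edgeR adjusted p = 0.00605) and with negative siRNA (-0.40, adjusted p = 0.00232), and none rose. SLBP gave 0.20 (edgeR adjusted p = 0.0601) with TUNAR siRNAs and 0.13 (adjusted p = 0.241) with negative siRNA. Of 29 histone chaperones and exchange factors, none was called with TUNAR siRNAs, and with negative siRNA ATRX (-0.21, edgeR adjusted p = 0.0314) and UBN2 (-0.35, adjusted p = 0.0444), both linked to H3.3 deposition, fell. Of 25 S-phase genes, FEN1, a flap endonuclease of DNA replication, rose in both backgrounds (0.23 with TUNAR siRNAs, edgeR adjusted p = 0.0412, and 0.25 with negative siRNA, adjusted p = 0.0292), and of 22 G2/M genes none was called. Of 4 tested genes among the other histone variants, MACROH2A2 fell with TUNAR siRNAs (-0.34, edgeR adjusted p = 0.0395) and gave -0.32 (adjusted p = 0.0509) with negative siRNA. TUNAR siRNAs gave no call in these 5 lists without the replicate block. With the block they gave 1 chaperone lower, 1 S-phase gene lower and 1 G2/M gene higher in 1-AKP, and 2 S-phase genes lower and 2 G2/M genes higher in DMSO, where 2.77% (1-AKP) and 3.05% (DMSO) of all genes were called.

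Histone RNA also differed by replicate number. In a fit with group and replicate number, 9 of 23 members were higher in replicate 1 than in replicates 2 and 3 and none was lower, where 20.0% of all tested genes were higher, 21.5% lower and 41.5% either. Of the variants, H2AZ2 averaged 180.4 FPKM over the 4 replicate 1 libraries, against 148 FPKM in replicate 2 and 152 FPKM in replicate 3 (log2 difference 0.29 ± 0.02, SE, edgeR adjusted p = 8.58e-13), and H2AX 77.7 FPKM, against 62.5 and 65.9 FPKM (0.27 ± 0.03, adjusted p = 2.17e-10). Replicate 1 was the highest of its group in all 4 groups for both genes. H2AZ1 and H3-3B were also higher (0.17 each), while H3-3A gave -0.01 (edgeR adjusted p = 0.901) and H1-10 0.06 (adjusted p = 0.163).

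Of the replication-dependent genes, H2BC5 averaged 9.43 FPKM in replicate 1, against 6.84 and 5.93 FPKM in replicates 2 and 3 (0.64 ± 0.11, SE, edgeR adjusted p = 1.6e-05). H2BC21 averaged 7.41 FPKM, against 6.50 and 5.54 FPKM (0.30 ± 0.06, edgeR adjusted p = 0.000131). H2AC11, at 1.86 FPKM against 1.01 and 1.27 FPKM, and the pseudogene H2BC20P, at 4.66 FPKM against 2.42 and 3.25 FPKM, were also called. H2AC11 averaged only 10.26 expected counts, and replicate 1 was its highest value in 2 of the 4 groups. The H2AC11 call ended with no filter on low counts and without replicate 3 of TUNAR siRNAs in 1-AKP. H2BC12 gave -0.07 ± 0.05 (edgeR adjusted p = 0.302). In the same libraries all 22 G2/M genes were higher in replicate 1 (median log2 difference 0.57), and of 25 S-phase genes 2 were higher and 21 lower (median -0.16). Of the 3′ processing and decay genes 12 of 22 were lower and none higher, and of the chaperones 5 of 29 were higher and 15 lower. Among markers of other cell types, the somatostatin gene SST had 43.73 to 52.94 FPKM in the 4 replicate 1 libraries, against 5.89 to 10.22 FPKM in replicates 2 and 3 (log2 difference 2.65, edgeR adjusted p = 6.35e-27). Of the 8 tested markers of other cells 4 were higher in replicate 1 (SST, CD68, COL1A1 and COL3A1) and 2 lower (CPA1 and KRT19), with a median of 0.458. Of the 8 beta-cell markers IAPP was higher (0.48) and 7 were lower, INS at -0.34, with a median of -0.176. The part of all these genes in the histone differences was not tested.

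The replicate 1 count moved most without replicate 3 of TUNAR siRNAs in 1-AKP, to 14 higher members, where 19.6% of all genes were higher. Those 14 include both members of the identical pairs H2AC18 and H2AC19, and H3C14 and H3C15. Lower calls appeared under other settings. Without replicate 1 of negative siRNA in 1-AKP, H2BC12 was lower (-0.15, edgeR adjusted p = 0.00993), where 18.4% of all genes were lower. With no filter on low counts H2AC14 was lower (edgeR adjusted p = 0.0254), where 15.5% of all genes were lower.

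**Figure D4:**
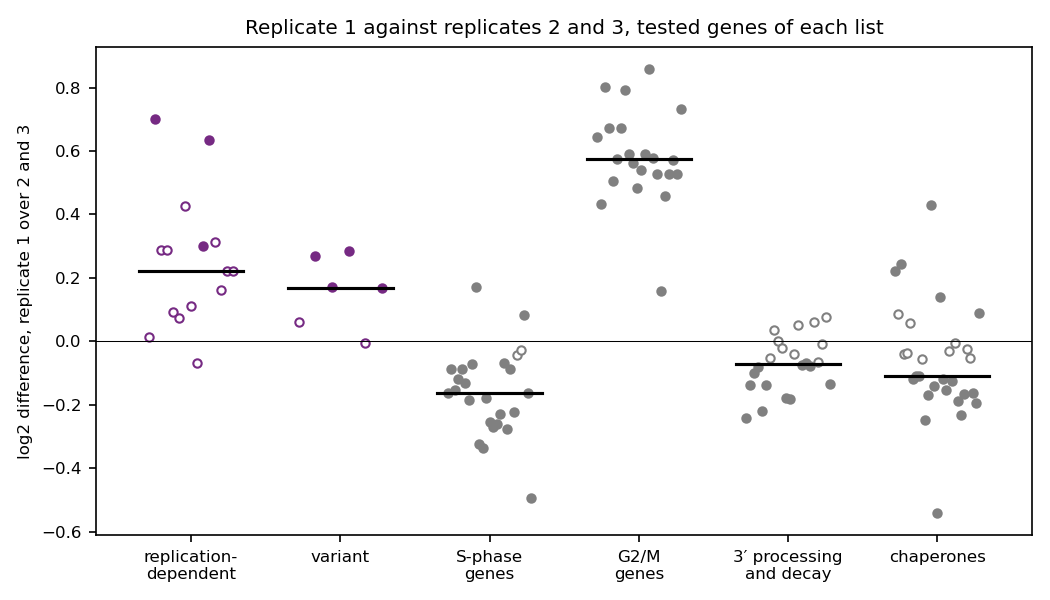
Log2 difference of replicate 1 over replicates 2 and 3 for tested genes (points, filled at an adjusted p under 0.05; bars, medians) in the 2 histone classes and 4 gene lists. The 22 G2/M genes all lie above 0, and 21 S-phase genes were called lower.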

How the data were processed

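RNA selected with oligo(dT) beads was sequenced from 12 libraries of EndoC-βH1 cells. The authors deposited an expected count per gene, FPKM and, as another column, a gene length in bases, per the file headers. The submitters' processing notes name RSEM, Bowtie, BWA and the builds GRCh37 and hg19, with roles and versions not given in the sources used here. Totals ran from 15653786 to 15986834 expected counts, and 35.3% to 36.0% of the expected counts were not whole and were rounded.

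Genes passed edgeR's filterByExpr (minimum count 10, minimum total 15), leaving 15990 genes. Libraries were scaled by TMM, and 1 model with 4 group means was fitted in edgeR 4.0.16 under R 4.3.3 (glmQLFit, robust) with Benjamini-Hochberg adjustment over all tested genes and a threshold of 0.05. The fit was first tested on simulated data. DESeq2 1.42.0, limma 3.58.1 on log2(FPKM + 1) and log2(FPKM + 0.1), other scalings, no filter, a replicate block, passage 74 alone and leaving out libraries were the alternatives.

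Replicate numbers were taken to pair libraries where every correlation of same-numbered deviations from group means exceeded 0.1. In the siRNA comparisons these were 0.376, 0.178 and 0.217 in DMSO and 0.416, 0.162 and 0.286 in 1-AKP. In the 1-AKP comparisons replicate 2 gave 0.0634 with TUNAR siRNAs and 0.0871 with negative siRNA, so the block was used there only as an alternative. Replicates 1 and 3 gave 0.407 and 0.159 with TUNAR siRNAs and 0.427 and 0.223 with negative siRNA. Chi-square per degree of freedom between libraries of a group was 2.31 to 11.3, so none was a copy of another.

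The members and gene lists were chosen with earlier results of these data known. Named genes were the 6 variants of the member rule, the 8 replication-dependent members of highest mean FPKM, any member called with or without the block, and the 2 members of lowest p in each of the 4 main comparisons. Members were matched to symbols through RefSeq names (21386 of 21508 identifiers). Protein sequences were not used here. Counts cover all members tested, and the values of 1 member are not reported here.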

Additional observations from a re-analysis of the deposited data

How the results depend on the processing

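The counts of called members held within 1.5 times under DESeq2 and limma in the 6 comparisons between groups, and under the other scalings and no filter in these and for replicate 1 against 2 and 3, which was not run in DESeq2 or limma. The replicate block raised the count to 8 for 1-AKP with TUNAR siRNAs, 10 with negative siRNA and 6 for the combined change, where 27.1%, 26.8% and 28.0% of all genes were called, and it changed no member's call in the siRNA comparisons. In the 1-AKP comparisons the replicate numbers missed the limit of 0.1 for pairing through replicate 2 alone, and every correlation was positive. With the block the members lower with 1-AKP included H1-10, H2AC6, H2BC21 and H3-3A in all 3, H2AZ2 with either siRNA, H2AC18 and H2AC19 with TUNAR siRNAs, and H2BC5, H4C14 and H4C15 with negative siRNA, and H2AZ1 was higher with negative siRNA and for the combined change. With the block and without replicate 1, 2 or 3, the counts were 5, 6 and 8 with TUNAR siRNAs, 8, 6 and 5 with negative siRNA, and 5, 4 and 4 for the combined change. Of all genes 24.9%, 18.5% and 16.8% were called with TUNAR siRNAs, 23.9%, 18.1% and 16.9% with negative siRNA, and 24.2%, 20.4% and 18.2% for the combined change. Without replicate 1, with the block, TUNAR siRNAs in 1-AKP gave 1, H2BC12, which was higher, where 1.91% of all genes were called. Passage 74 alone, with fewer samples, gave 0 for 1-AKP with TUNAR siRNAs, with negative siRNA and for the combined change. Of all genes 0.418%, 0.318% and 0.536% were called there. Leaving out replicates gave 1 to 4 with TUNAR siRNAs, 0 to 6 with negative siRNA, 1 to 5 for the combined change and 8 to 14 for replicate 1 against 2 and 3, where 3.16% to 17.3%, 3.04% to 16%, 3.42% to 16.4% and 35.6% to 40.1% of all genes were called. The cause of these moves was not tested. Of 64 alternatives for the summed levels, all stayed within 1 SD and 4 changed sign.

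Of 1824 alternative values for the named genes, 107 had the other sign, none of them called, in 36 of 76 results. Log2 values on leaving out replicates are given as lowest to highest. For TUNAR siRNAs against the negative siRNA in DMSO, they were H1-2 -0.099 to 0.077, H2AC11 -0.19 to 0.51, H2AC18 -0.079 to 0.24, H2AC19 -0.079 to 0.24, H2AC6 -0.11 to 0.39, H2AX -0.035 to 0.17, H2AZ1 -0.014 to 0.090, H2AZ2 -0.035 to 0.15, H2BC20P -0.12 to 0.40, H2BC5 -0.34 to 0.11, H3-3A -0.000 to 0.073, H4C12 -0.52 to 0.51, H4C14 -0.087 to 0.11, H4C15 -0.087 to 0.11. For TUNAR siRNAs against the negative siRNA in 1-AKP, they were H1-10 -0.097 to 0.056, H1-2 -0.078 to 0.24, H2AC11 -0.46 to 0.48, H2AX -0.041 to 0.14, H2AZ1 -0.076 to 0.092, H2AZ2 -0.089 to 0.14, H2BC20P -0.50 to 0.27, H4C14 -0.013 to 0.26, H4C15 -0.013 to 0.26. For 1-AKP against DMSO with the negative siRNA, they were H2AC11 -0.51 to 0.19, H2AX -0.11 to 0.077, H2BC12 -0.17 to 0.066, H2BC20P -0.34 to 0.43, H3-3B -0.083 to 0.054, H4C12 -0.35 to 0.69. For 1-AKP against DMSO with TUNAR siRNAs, they were H2AC11 -0.77 to 0.17, H2AX -0.13 to 0.061, H2AZ1 -0.015 to 0.15, H2BC12 -0.13 to 0.004, H2BC20P -0.47 to 0.052, H3-3B -0.091 to 0.006.

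Values of the other sign under further settings follow, as log2. With the replicate block and without replicate 1, TUNAR siRNAs against the negative siRNA in DMSO gave H1-2 0.076, H2AC6 -0.11, H3-3A -0.002. There TUNAR siRNAs against the negative siRNA in 1-AKP gave H1-10 0.057, H2AC11 -0.45, H2AZ1 -0.009, H2AZ2 -0.004, H2BC20P 0.15. There 1-AKP against DMSO with the negative siRNA gave H2AC11 0.19, H2BC20P -0.21. With the block and without replicate 2, TUNAR siRNAs against the negative siRNA in DMSO gave H2BC5 0.064, H4C12 0.69, H4C14 -0.001, H4C15 -0.001. There TUNAR siRNAs against the negative siRNA in 1-AKP gave H1-2 -0.095. There 1-AKP against DMSO with TUNAR siRNAs gave H2AC25 -0.017. With the block and without replicate 3, TUNAR siRNAs against the negative siRNA in DMSO gave H2AC11 -0.11, H4C14 -0.009, H4C15 -0.009. There TUNAR siRNAs against the negative siRNA in 1-AKP gave H1-2 -0.12. There 1-AKP against DMSO with the negative siRNA gave H2BC12 0.066, H4C12 -0.47. There 1-AKP against DMSO with TUNAR siRNAs gave H2AC11 0.34. With passage 74 alone, TUNAR siRNAs against the negative siRNA in DMSO gave H2AC11 -0.12, H4C14 -0.010, H4C15 -0.010. There TUNAR siRNAs against the negative siRNA in 1-AKP gave H1-2 -0.12. There 1-AKP against DMSO with the negative siRNA gave H2BC12 0.062, H4C12 -0.47. There 1-AKP against DMSO with TUNAR siRNAs gave H2AC11 0.34. With limma on log2(FPKM + 0.1), TUNAR siRNAs against the negative siRNA in DMSO gave H4C12 0.20, H4C14 -0.001, H4C15 -0.001. There TUNAR siRNAs against the negative siRNA in 1-AKP gave H2AC11 -0.011. With limma on log2(FPKM + 1), TUNAR siRNAs against the negative siRNA in DMSO gave H4C12 0.061, H4C14 -0.001, H4C15 -0.001. With library size scaling only, TUNAR siRNAs against the negative siRNA in DMSO gave H4C14 -0.002, H4C15 -0.002. 

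Expected counts of most replication-dependent genes were low, and 73 members did not pass the filter and were not tested there. With no filter, replicate 1 against 2 and 3 called 4 of them, H2BC8 and the identical pair H3C14 and H3C15 higher, and H2AC14 lower.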
